A study of Mus musculus with 26 samples.

Results

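The comparison described here sets whole testes of Sox30 knockout mice against whole testes of wild-type mice. Both groups are C57BL/6 mice at postnatal day 21, and the labels name no other allele or agent for either group. Libraries were assigned by the heading inside each deposited count file, with repeated columns kept once, which gave 5 distinct libraries (3 wild type and 2 knockout) from 6 files, out of 26 samples in the series. The labels do not say how the Sox30 allele was made or which part of the gene it removes, and the set is described as biological replicates without naming litters, so the p-values measure the spread between these 5 testis libraries.

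SOX30 is a DNA-binding protein of the SOX family, which shares an HMG-box domain that bends DNA at short sites with the core ACAAT. In the mouse it is made in meiotic and early haploid germ cells, and males without it are sterile, with spermatids that stop developing at the round stage. Round spermatids are the haploid cells that follow meiosis, and they go on to build the acrosome, condense the nucleus and assemble the tail. At the age studied the first wave of germ cells has only just reached the round spermatid stage, so whole testis holds few of them beside spermatogonia, spermatocytes and somatic cells.

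The headings and the file records disagree in 5 of the 6 files, each heading naming another sample than the one recorded. For 1 library the groups themselves differ: the third wild-type library (wild type 3) carries a wild-type heading, while its file is recorded as a knockout. A pair of files held identical values in all 24682 genes and was counted once, as wild type 1. Total counts were 40010106, 34794405 and 34167576 in wild type 1, 2 and 3, and 36234974 and 36608940 in knockout 1 and 2. Counts of calls are therefore also given without wild type 3 where they change, and no further knockout library was analysed here.

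Sox30 itself (chromosome 11, 45980310 to 46017994 on GRCm38, protein coding) was still counted in the knockout testes. Its level was 77.6, 86.2 and 72.4 counts per 1000000 (CPM) in wild type 1, 2 and 3, against 44.7 and 61.5 CPM in knockout 1 and 2. Both knockout libraries lay below all 3 wild-type libraries. The log2 fold change was -0.57 ± 0.15 (standard error), and edgeR's quasi-likelihood test with Benjamini-Hochberg adjustment over all genes gave an adjusted p of 0.170. DESeq2 called it lower, with an adjusted p of 0.0434, and the edgeR value ranged from 0.0775 to 0.561 with 1 library left out. Because the allele is not described, gene-level counts of Sox30 do not check the labels, and no exon-level values were used here. Soluble adenylyl cyclase, Adcy10, is the called fall with the highest wild-type level among those of at least 8-fold, with provisional symbols passed over. It measured 160, 233 and 147 CPM in wild type and 9.24 and 14.5 CPM in knockout. Wild type 3 lay far above both knockouts for this gene. The gene was picked from falls called with wild type 3 placed in the wild-type group, so it does not check the label of wild type 3.

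Genes used by spermatids to build sperm were among those lower in the knockout testes. Of 17816 genes tested, 342 were lower in knockout, which is 1.92% of them, and 90 were higher, which is 0.505% (edgeR's quasi-likelihood test, adjusted p under 0.05). A log2 size of at least 1 was reached by 338 of the falls (1.9% of genes tested) and by 82 of the rises (0.46%). The median log2 fold change was -5.58 over the falls and 3.24 over the rises, beside 0.0031 over all genes tested. Setting the 52 falls that had 0 counts in both knockouts to the bound that 3 counts would give moved the median of the falls to -5.20. In all 342 falls both knockouts lay below all 3 wild types, a pattern that 11.1% of all genes tested showed, and in all 90 rises both lay above, as in 9.85% of genes tested.

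**Figure D1:**
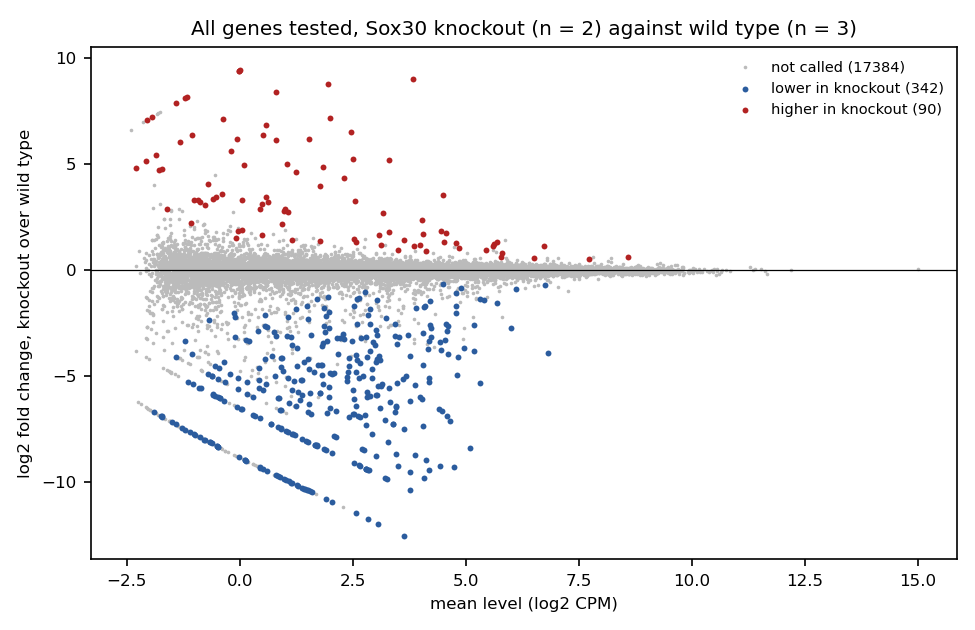
Log2 fold change of knockout (n = 2) over wild type (n = 3) against mean level (log2 CPM) for the 17816 genes tested, with 342 called lower in blue and 90 called higher in red. The falls reach far larger sizes than the bulk of genes around 0; the straight diagonal rows are genes with 0 or very few counts in one group, whose fitted size depends on the prior count.

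Most falls were near-complete. In 174 of the 342 falls the knockout mean was at most 2% of the wild-type mean, and in a further 96 it was between 2% and 10%. Another 47 kept between 10% and 25%, 21 kept between 25% and 50%, and 4 kept more than 50%. Those 4 with the highest remaining level, named after their values were seen, were Tmem59l, Cdh2, Dennd4b and Tmc7. A stricter class was chosen after the levels were seen. It holds genes with both knockouts under 10% of every wild type and every wild type at 0.5 CPM or more. There were 210 such genes (1.18% of those tested), of which 199 were called. The mirror class has every wild type under 10% of both knockouts and both knockouts at 0.5 CPM or more. It held 25 genes, and all 25 were called.

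The number of calls depended on single libraries. Without wild type 3 there were 610 falls and 83 rises, and 339 of the 342 falls and 75 of the 90 rises were called again. Without wild type 1 there were 101 falls and 27 rises, and without wild type 2 there were 287 and 60. Leaving out knockout 1 gave 7 falls and 36 rises, and leaving out knockout 2 gave 8 falls and 12 rises; these fits rest on a single knockout library, assumed to vary like the wild types. Grouping the libraries by their file records places wild type 3 among the knockouts. In that grouping 0 genes passed in either direction in edgeR, and 1202 of 17816 reached an unadjusted p under 0.05.

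The strongest wild-type transcripts among the near-complete falls show what was lost and what their promoters look like. By rule, promoters are given for the 4 falls of at least 8-fold with the highest wild-type level that have a usable entry in the RefSeq promoter table. Adcy10, which makes the cyclic AMP that starts sperm swimming, fell from 160, 233 and 147 CPM to 9.24 and 14.5 CPM (log2 fold change -3.92 ± 0.29, adjusted p = 0.00394). Akap4, the main scaffold of the fibrous sheath that runs along the sperm tail, fell from 56.4, 113 and 26.6 CPM to 0.534 and 2.73 CPM (-5.33 ± 0.85, adjusted p = 0.0246). Chl1, a cell adhesion molecule of the L1 family, fell from 49.7, 92.4 and 29.7 CPM to 1.76 and 6.33 CPM (-3.83 ± 0.67, adjusted p = 0.0339). Sh3d21, a protein with SH3 domains, fell from 44.1, 80.1 and 22.9 CPM to 3.5 and 4.18 CPM (-3.67 ± 0.54, adjusted p = 0.0178). In each of the 4 the lowest wild type, wild type 3, stood well above the higher knockout. The 4 genes were chosen with wild type 3 counted as wild type.

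The promoter windows run from 250 bases before to 50 bases after the start of transcription (RefSeq, GRCm38.p6), printed 5′ to 3′ on the gene's strand, with ACAAT or its reverse complement ATTGT in capitals. Adcy10 lies at chr1:165484933-165485232 on the plus strand, Akap4 at chrX:7067265-7067564 on the plus strand, Chl1 at chr6:103510626-103510925 on the plus strand and Sh3d21 at chr4:126162616-126162915 on the minus strand. Akap4 and Sh3d21 have 2 promoters each in the table, and for both the one that holds the word is shown.
Adcy10: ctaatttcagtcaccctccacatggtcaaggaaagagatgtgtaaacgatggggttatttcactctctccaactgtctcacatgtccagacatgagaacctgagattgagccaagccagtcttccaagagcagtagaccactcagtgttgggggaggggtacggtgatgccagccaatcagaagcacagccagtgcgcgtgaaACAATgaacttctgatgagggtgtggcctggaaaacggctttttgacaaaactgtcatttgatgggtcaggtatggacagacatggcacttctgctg
Akap4: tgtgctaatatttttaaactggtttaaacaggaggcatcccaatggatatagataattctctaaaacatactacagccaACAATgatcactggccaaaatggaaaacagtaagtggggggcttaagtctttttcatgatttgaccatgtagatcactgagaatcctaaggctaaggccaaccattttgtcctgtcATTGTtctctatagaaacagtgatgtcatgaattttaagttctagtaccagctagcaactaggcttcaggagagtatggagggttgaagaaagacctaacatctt
Chl1: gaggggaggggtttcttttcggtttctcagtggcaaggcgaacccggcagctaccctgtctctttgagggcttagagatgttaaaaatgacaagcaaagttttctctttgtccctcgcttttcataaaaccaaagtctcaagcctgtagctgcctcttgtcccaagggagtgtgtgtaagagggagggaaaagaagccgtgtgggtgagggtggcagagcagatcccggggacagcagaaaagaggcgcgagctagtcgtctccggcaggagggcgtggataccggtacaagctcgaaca
Sh3d21: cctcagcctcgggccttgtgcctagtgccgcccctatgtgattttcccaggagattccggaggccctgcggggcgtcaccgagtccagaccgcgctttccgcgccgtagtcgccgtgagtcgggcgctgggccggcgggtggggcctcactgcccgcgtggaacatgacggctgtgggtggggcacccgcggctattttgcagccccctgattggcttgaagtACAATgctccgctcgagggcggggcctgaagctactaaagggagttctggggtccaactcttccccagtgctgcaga
The word begins 47 bases before the start in Adcy10 and 27 bases before it in Sh3d21. In Akap4 it occurs 171 and 55 bases before the start. The Chl1 window holds neither form, so a fall of this size occurred with and without these letters in the window.

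Gene groups of the spermatid were followed through lists chosen by what their members build or do. Over 9 of them (acrosome, egg binding and fusion, nuclear proteins, head shaping, sheath, ion transport, kinases, energy supply and transcription regulators), 287 genes were tested, 57 were lower and 0 were higher in edgeR (83 lower without wild type 3, 20 without wild type 1, 54 without wild type 2, and 1 each without knockout 1 or knockout 2). With the axoneme and intraflagellar transport lists added, 57 of 371 were lower and 0 higher. Over all genes tested 1.92% were lower and 0.505% higher, and each list count below is read beside these shares. DESeq2 called 82 of the 287 lower and 0 higher, and limma voom called 1 lower and 0 higher. Several of these transcripts are found mainly in spermatids, and in whole-testis RNA fewer cells of a type and less RNA per cell cannot be told apart.

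**Figure D2:**
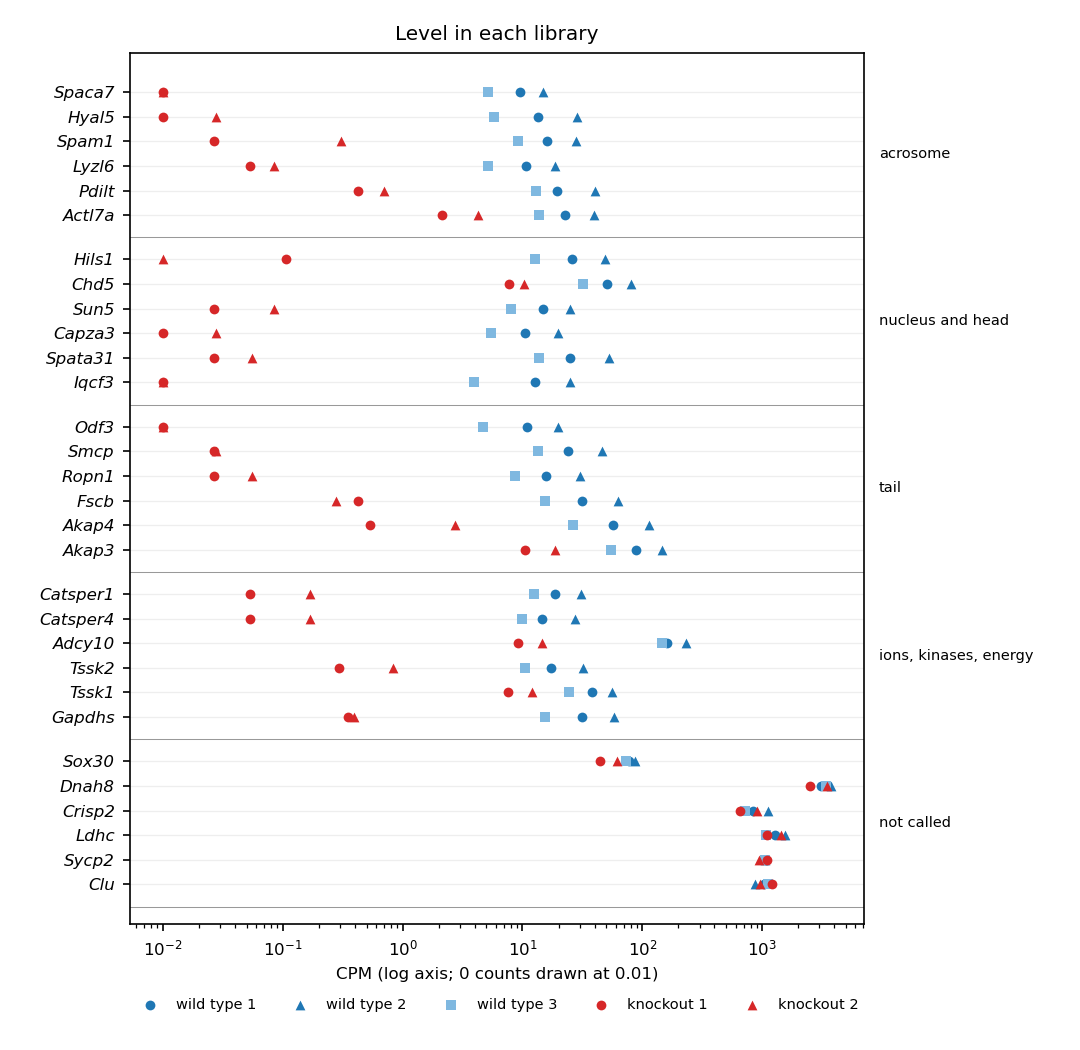
Level in each library (CPM, log axis, 0 counts drawn at 0.01) of 24 called genes in 4 groups and of 6 genes that were not called; blue marks are wild type (light blue for wild type 3) and red marks are knockout. For the called genes wild type 2 is highest, then wild type 1, then wild type 3, and both knockouts lie to the left of all 3.

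The acrosome is the enzyme-filled cap over the sperm nucleus. Of its 39 tested members 14 were lower and 0 higher, and the median log2 fold change was -2.71, beside 0.0031 over all genes tested (19 lower without wild type 3, 4 without wild type 1 and 0 without either knockout). Spaca7, a matrix protein released when the acrosome opens, measured 9.45, 14.8 and 5.18 CPM in wild type and had 0 counts in both knockouts, which makes it at least 239-fold lower (3 counts over the group; adjusted p = 0.00665). Hyal5, a hyaluronidase that helps sperm through the layer around the egg, measured 13.6, 28.4 and 5.74 CPM in wild type, against 0 and 0.0279 CPM in knockout. That is a ratio of 1153-fold from 1 count in knockout, with a 95% counting interval (Clopper-Pearson) of 207 to 45562 (adjusted p = 0.00956). Spam1, its neighbour on chromosome 6 and a related hyaluronidase, fell from 15.9, 28 and 9.17 CPM to 0.0267 and 0.307 CPM (-6.72 ± 0.80, adjusted p = 0.00785). No wild-type level of these 3 genes came near a knockout level.

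Lysozyme-like acrosomal proteins fell as well. Lyzl6 measured 10.6, 18.6 and 5.15 CPM in wild type and 0.0534 and 0.0836 CPM in knockout (-7.32 ± 0.81, adjusted p = 0.00665), and Lyzl4 fell by 5.12 ± 0.55 on the log2 scale (adjusted p = 0.00663). Pdilt, a testis chaperone of the disulphide isomerase family, fell from 19.5, 39.9 and 12.9 CPM to 0.427 and 0.697 CPM (-5.42 ± 0.62, adjusted p = 0.00685). Cylc1, a cylicin of the cytoskeletal cup under the acrosome, had 0 counts in both knockouts and was at least 120-fold lower (adjusted p = 0.0107). Other acrosomal genes did not pass the test: Dpy19l2, which anchors the acrosome to the nucleus, measured 202, 267 and 200 CPM against 168 and 231 CPM (-0.16, adjusted p = 1), and Tex101, a surface protein of germ cells, measured 406, 333 and 411 CPM against 449 and 357 CPM (0.07, adjusted p = 1). In both of these the groups overlapped.

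Genes for binding and fusing with the egg were affected in part. Of 28 tested members 5 were lower and 0 higher (10 lower without wild type 3), with a median of -0.40. Izumo2, a relative of the sperm protein that docks with the egg, measured 4.74, 6.96 and 2.15 CPM in wild type and 0 counts in both knockouts, at least 113-fold lower (adjusted p = 0.011). Tmem95, a sperm membrane protein needed for fusion, fell from 2.73, 2.48 and 1.05 CPM to 0.0801 and 0.0836 CPM (-4.62 ± 0.62, adjusted p = 0.0126). Adam29 and Adam6a, members of the ADAM family of membrane proteins, kept 1 count each in knockout. Their ratios were 380-fold (67.8 to 15018) and 327-fold (58.4 to 12938), with adjusted p of 0.0316 and 0.0383; Adam6a has a near-identical copy, Adam6b, so its counts are uncertain. Crisp2, a secretory protein of the acrosome and tail, measured 833, 1119 and 720 CPM against 653 and 912 CPM, and Clgn, the endoplasmic reticulum chaperone calmegin, measured 768, 895 and 751 CPM against 723 and 882 CPM, both with overlapping groups and adjusted p of 1.

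Nuclear proteins of spermatids fell too, though the best-known ones lay at low levels in wild type. Of 30 tested members 5 were lower and 0 higher (11 lower without wild type 3). Hils1, a linker histone made in spermatids, fell from 25.8, 48.4 and 12.7 CPM to 0.107 and 0 CPM (-8.96 ± 0.99, adjusted p = 0.00665). Chd5, a remodeller needed to replace histones, fell from 50.4, 80.2 and 31.9 CPM to 7.67 and 10.2 CPM (-2.60 ± 0.39, adjusted p = 0.0195). The cysteine-rich Cypt2, Cypt3 and Cypt12 of the spermatid nucleus were also called, but the Cypt family holds near-identical copies and their counts are uncertain. Transition proteins and protamines, which replace the histones in later spermatids, were named after their values were seen: Tnp1 measured 1.61, 4.96 and 0.582 CPM against 0.0534 and 0.0836 CPM (adjusted p = 0.0921), and Prm1 measured 1.32, 7.61 and 0.0291 CPM against 0 counts in both knockouts (adjusted p = 0.368). Both lay below every wild type in the knockouts without passing, and their wild-type levels differed widely between libraries. The spermatocyte and spermatid regulator Phf7 (1345, 1549 and 1198 CPM against 1106 and 1469 CPM) overlapped between groups.

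Genes that shape the head and its nuclear envelope were lower in 11 of 37 tested members, with 0 higher (15 lower without wild type 3). Sun5, a nuclear envelope protein that joins the tail to the head, fell from 14.8, 25.1 and 8.04 CPM to 0.0267 and 0.0836 CPM (-8.11 ± 0.79, adjusted p = 0.00585). Spata31, a spermatid protein of a large family, fell from 24.9, 52.5 and 13.7 CPM to 0.0267 and 0.0558 CPM, a ratio of 733-fold from 3 counts (250 to 3554, adjusted p = 0.00663). Capza3, the germ cell form of an actin-capping subunit, fell from 10.4, 20 and 5.47 CPM to 0 and 0.0279 CPM, a ratio of 867-fold from 1 count (155 to 34278, adjusted p = 0.00665). The largest fitted fall of any named gene was Iqcf3, a small protein with a calmodulin-binding motif: 12.7, 24.8 and 3.96 CPM in wild type and 0 counts in both knockouts, at least 335-fold lower (adjusted p = 0.0271). Iqcf5 and Iqcf4 lie beside it on chromosome 9 and fell as well, to 1 count each over both knockouts. Spata4, an abundant member of the head-shaping list without a call, had overlapping groups and a log2 fold change of -0.04.

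In the tail, calls were found among sheath genes. Of 31 tested genes of the fibrous sheath, outer dense fibres and mitochondrial sheath, 8 were lower and 0 higher (10 lower without wild type 3). Odf3, named for the outer dense fibres, measured 10.9, 19.8 and 4.66 CPM in wild type and 0 counts in both knockouts, at least 286-fold lower (adjusted p = 0.0145). Smcp, the cysteine-rich protein of the mitochondrial capsule, fell from 24.2, 45.9 and 13.4 CPM to 0.0267 and 0.0279 CPM, a ratio of 1009-fold from 2 counts (279 to 8338, adjusted p = 0.00554). Akap3, a second scaffold of the fibrous sheath, kept more of its level, falling from 89.4, 145 and 54.7 CPM to 10.5 and 18.6 CPM (-2.73 ± 0.45, adjusted p = 0.0272). Ropn1, Fscb and Oaz3, which encode further sheath and tail proteins, fell by 8.68, 6.67 and 6.09 on the log2 scale (adjusted p = 0.0066, 0.00736 and 0.00789). Odf2, a dense fibre protein also found at centrosomes, measured 919, 1071 and 827 CPM against 689 and 1035 CPM and did not pass (adjusted p = 1).

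For the axoneme, the microtubule core of the tail, 0 of 61 tested members were called in either direction by edgeR, DESeq2 or limma voom, and 2 reached an unadjusted p under 0.05. Dnah8, an outer-arm dynein heavy chain of the sperm tail, measured 3110, 3725 and 3383 CPM against 2497 and 3469 CPM, and Dnah17 measured 920, 1037 and 902 CPM against 603 and 1023 CPM. The groups overlapped in both genes. Intraflagellar transport, which carries parts into a growing tail, had 0 of 26 members called by the same 3 tools, with 1 at an unadjusted p under 0.05, and Ift140 and Ift172 overlapped between groups with log2 fold changes of -0.08 and 0.03. A fit with the replicate number as a block called 7 axoneme and 2 intraflagellar transport members lower. At the share over all genes tested (1.92% lower), lists of 61 and 26 genes hold few or no calls. Their counts therefore do not set them apart from other genes. The difference between the sheath and axoneme lists was not tested.

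**Figure D3:**
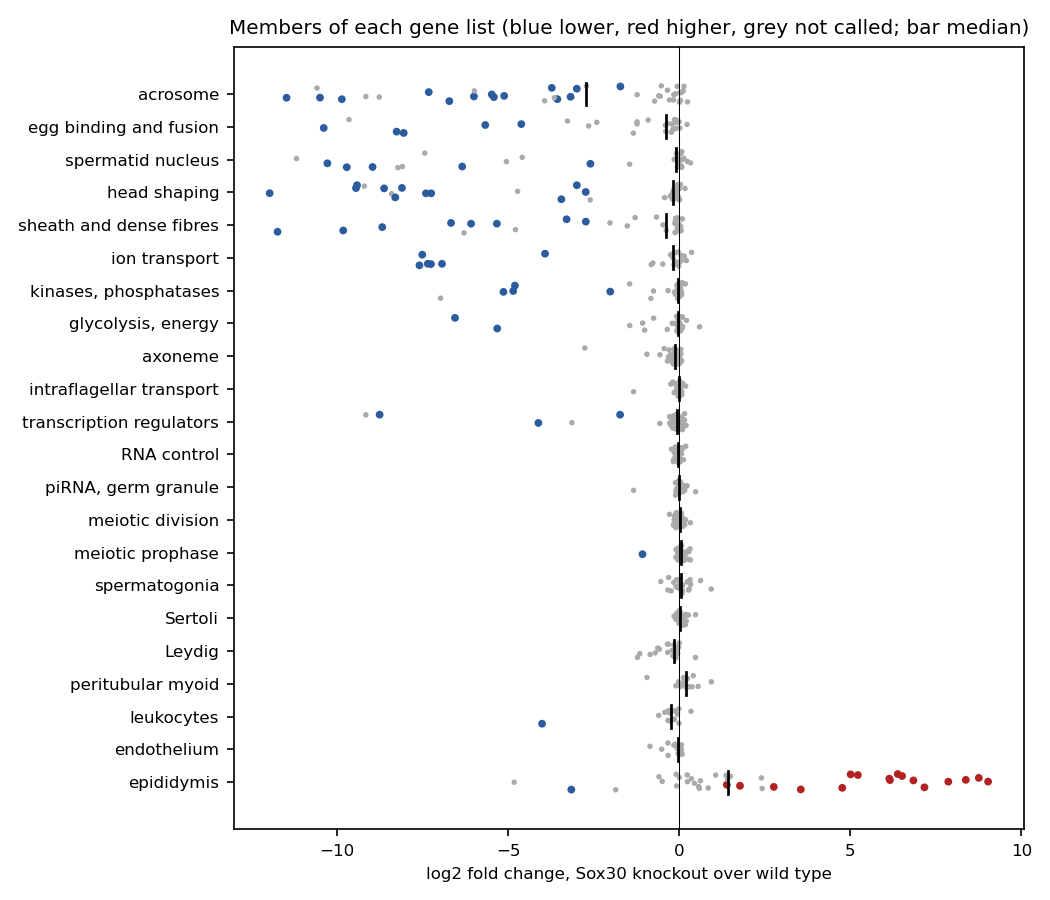
Log2 fold change of the tested members of 22 gene lists, with called members in blue (lower) or red (higher) and the list's median as a bar; members with 0 counts in one group are drawn at their fitted value, which is no bound. The acrosome list has its median at -2.71, the epididymis list at 1.41, and the other medians lie between -0.40 and 0.18.

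Among ion channels, exchangers and cyclases of sperm, 6 of 23 tested members were lower and 0 higher. Of the 4 pore-forming subunits of the sperm calcium channel 3 fell: Catsper1 went from 18.7, 30.6 and 12.5 CPM to 0.0534 and 0.167 CPM (-7.51 ± 0.62, adjusted p = 0.00509), and Catsper3 and Catsper4 fell by 6.93 ± 0.77 and 7.26 ± 0.69 (adjusted p = 0.00665 and 0.00554). Catsper2, the other pore subunit, named after its values were seen, measured 178, 241 and 170 CPM against 142 and 200 CPM (-0.20, adjusted p = 1). Neither of the 2 most abundant auxiliary subunits passed: Catsperg1 measured 246, 303 and 274 CPM against 266 and 302 CPM, and Catsperg2 measured 230, 272 and 250 CPM against 234 and 262 CPM, each with an adjusted p of 1. Atp1a4, the sodium pump subunit of sperm, fell from 22.9, 49 and 9.96 CPM to 0.107 and 0.223 CPM (-7.35 ± 0.94, adjusted p = 0.0102). The auxiliary genes Catsperb, Catsperd and Catsperz, also named after their values were seen, had log2 fold changes of -0.18, -0.26 and -0.11 and adjusted p of 1, 0.911 and 1. The groups overlapped in all of these uncalled subunits and did not overlap in Catsper1; the difference between the subunits was not tested.

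Testis kinases and phosphatases were lower in 4 of 30 tested members, all of the Tssk family of spermatid serine kinases. Tssk2 fell from 17.3, 31.9 and 10.5 CPM to 0.294 and 0.836 CPM (-5.14 ± 0.65, adjusted p = 0.00956). Its chromosome 16 neighbour Tssk1 kept more, falling from 37.8, 56.3 and 24.5 CPM to 7.64 and 11.9 CPM (-2.02 ± 0.37, adjusted p = 0.0403), and Tssk3 and Tssk5 fell by 4.80 and 4.85 (adjusted p = 0.00554 and 0.0102). The sperm phosphatase genes Ppp1cc and Ppp3r2 overlapped between groups, with log2 fold changes of -0.05 each. In energy supply 2 of 30 tested members were lower (4 without wild type 3): Gapdhs, the sperm form of a glycolytic enzyme, fell from 31.1, 58.3 and 15.5 CPM to 0.347 and 0.39 CPM (-6.56 ± 0.72, adjusted p = 0.00665), and Acsbg2, an acyl-CoA synthetase of testis, fell by 5.32 ± 0.56 (adjusted p = 0.00663). Ldhc, the germ cell lactate dehydrogenase already made in spermatocytes, measured 1286, 1551 and 1081 CPM against 1100 and 1438 CPM.

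Some regulators of transcription were lower. Of 43 tested members 3 were lower (6.98%, beside 1.92% of all genes tested) and 0 higher. There were 5 lower without wild type 3 and 0 without wild type 1, and DESeq2 called 6 lower and limma voom 0. Hsfy2, a relative of heat shock factors, fell from 11.1, 23.9 and 4.89 CPM to 0 and 0.0558 CPM, a ratio of 482-fold from 2 counts (133 to 3986, adjusted p = 0.0116). Spz1, a helix-loop-helix leucine zipper factor of germ cells, fell from 39.8, 76.2 and 20.4 CPM to 2.11 and 3.12 CPM (-4.12 ± 0.60, adjusted p = 0.0173). Another SOX gene, Sox5, fell from 21.2, 32.5 and 16.1 CPM to 8.36 and 5.66 CPM (-1.73 ± 0.33, adjusted p = 0.0463), the only edgeR call among 18 tested SOX genes. DESeq2 called 3 of the 18 lower, and limma voom, size factors and the fit without wild type 1 called 0. Crem and Rfx2, known activators of spermatid genes and named after their values were seen, measured 136, 163 and 118 CPM against 129 and 152 CPM and 325, 369 and 313 CPM against 260 and 373 CPM. Both overlapped between groups, with adjusted p of 1.

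Meiotic and earlier germ cell lists held few calls. At the shares over all genes tested (1.92% lower, 0.505% higher), lists of 26 to 43 genes hold few or none. Their counts therefore do not set them apart from other genes. Synapsis and recombination genes had 1 of 43 tested members lower and 0 higher: Rec8, a cohesin of meiosis, fell from 32.8, 41.8 and 28.9 CPM to 18.3 and 14.4 CPM (-1.07 ± 0.19, adjusted p = 0.0361). Sycp2, a core protein of paired chromosomes, measured 1085, 1064 and 1049 CPM against 1091 and 949 CPM, with overlap. Division genes (0 of 38), RNA-binding and translation control (0 of 36), PIWI and germ granule genes (0 of 26) and spermatogonial genes (0 of 27) had no calls in edgeR, DESeq2 or limma voom. At an unadjusted p under 0.05 these lists held 1, 0, 1 and 3 genes.

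Markers of somatic cells were present in every library. Sertoli cell genes summed to 3060, 2571 and 3158 CPM in wild type and 3321 and 2727 CPM in knockout, and Leydig cell genes to 927, 793 and 835 CPM against 846 and 684 CPM, with overlap in both. Myoid cell genes summed to 794, 715 and 837 CPM in wild type and 896 and 839 CPM in knockout, both knockouts lying above all wild types; the part of this in the results was not tested. None of 30 Sertoli, 23 Leydig or 16 myoid genes passed in edgeR, DESeq2 or limma voom, and 0, 2 and 4 of them reached an unadjusted p under 0.05. Without wild type 3, edgeR called 1 Leydig gene lower. Among 19 leukocyte genes only Aif1 passed, falling from 8.49, 15.3 and 4.66 CPM to 0.775 and 0.39 CPM (-4.01 ± 0.60, adjusted p = 0.0195). This leukocyte marker was also at 122 CPM in the sorted wild-type spermatocytes and 273 CPM in the sorted wild-type round spermatids of the series.

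The rises were split into 2 kinds by where else the genes were counted. Sorted germ cells of the series, pachytene spermatocytes and round spermatids of wild-type mice, had a mean under 1 CPM for 55 of the 90 rises, and at least 1 CPM in 1 or both cell types for the other 35. The 55 rose by a median of 4.82 on the log2 scale and the 35 by 1.33. Many of the 55 had few or no counts in wild type, and such genes are called only at a large fold. The gap between these medians therefore does not set the 2 kinds apart. Among the 55 were secreted proteins known from the epididymis, the duct that receives sperm from the testis. Crisp1, an epididymal protein that coats sperm, measured 0.124, 0.0295 and 0.0291 CPM in wild type and 25 and 45.6 CPM in knockout (9.03 ± 0.46, adjusted p = 0.00102). Adam7, an epididymal membrane protein, measured 0.0744, 0.0885 and 0.0291 CPM against 8.76 and 10.7 CPM (7.17 ± 0.32, adjusted p = 0.000683), and Serpina16 measured 0.0248, 0.177 and 0.0873 CPM against 5.85 and 7.92 CPM (6.16 ± 0.46, adjusted p = 0.00394). Serpina1f, a protease inhibitor, rose from 2 counts over the wild types, a ratio of 510-fold (141 to 4220, adjusted p = 0.00102), and Wfdc16 from 1 count, 455-fold (81.0 to 18012, adjusted p = 0.00394). Wfdc13, Defb42 and Rnase12, small secreted proteins of epididymal families, rose by 6.51, 6.84 and 6.39 (adjusted p = 0.0134, 0.00821 and 0.00626).

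The list of 66 epididymal and duct genes was followed as a whole. Of its 39 members tested, 17 were higher, 1 (Gpx6) was lower, both knockouts lay above all wild types in 25, and the median was 1.41 (17 higher and 3 lower without wild type 3, 11 and 0 without wild type 1, 13 and 0 without knockout 1, 7 and 0 without knockout 2). Over all genes tested 0.505% were higher, 1.92% were lower, and 9.85% had both knockouts above all wild types. Some members with almost no counts in wild type, Crisp1 among them, passed the filter on low counts only through the knockouts. The list's summed level was 189, 209 and 180 CPM in wild type and 309 and 478 CPM in knockout. Of the 27 members that did not pass the filter on low counts, 4 had 0 counts in all 5 libraries, among them Lcn10, Defb18 and Defb25, while Gpx5 had at most 1 count in any library and Lcn5 had 0 counts in wild type and 5 and 25 in knockout. The higher calls were also counted in a wild-type testis of another set: in the TGdel set (TGdel is an Nkapl allele), whose wild-type library is used here, 47 of the 55 lay above all 3 wild types of the Sox30 set, against 36.3% of all genes tested, and Crisp1 measured 23.3 CPM there. Knockout 2 lay above knockout 1 in 54 of the 55, and in 8389 of 17816 genes tested. Whether tissue attached to the testis differed between libraries was not tested.

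Of the 35 rises at 1 CPM or more in the sorted libraries, 2 were in the epididymal list, against 15 of the other 55. The difference was not tested. Some somatic markers also passed 1 CPM there: Leydig Hsd3b1 and leukocyte Mrc1 measured 6.16 and 6.22 CPM in the sorted wild-type spermatocytes. Endothelial Cdh5 was at 0.594 CPM. A level of 1 CPM thus does not show that germ cells make the RNA. In 14 of the 35 the TGdel set's wild type lay above the Sox30 set's wild types, beside 36.3% of all genes tested. By rule the abundant ones were Sptbn1, a spectrin of the cell cortex, at 301, 316 and 328 CPM against 496 and 480 CPM (0.63 ± 0.09, adjusted p = 0.0178), and Oxr1, an oxidation resistance protein, at 184, 182 and 177 CPM against 256 and 259 CPM (0.51 ± 0.08, adjusted p = 0.027). Egflam, a matrix protein, rose by 0.58 ± 0.11 (adjusted p = 0.0432), and Slco6b1, named for the organic anion transporters and annotated as a transcribed unprocessed pseudogene, went from 29.7, 42.8 and 24.8 CPM to 71 and 90 CPM (1.31 ± 0.22, adjusted p = 0.0314). Oxr1 and Egflam lost their call without wild type 3 (adjusted p = 0.101 and 0.111). Trp63, a p53 relative that marks basal epithelium and is also made in germ cells, rose from 5.34, 3.81 and 5.85 CPM to 15 and 19.2 CPM (1.77 ± 0.22, adjusted p = 0.0084). Named after their values were seen, Zfp57, an imprint-keeping zinc finger protein, went from 12.5, 14.9 and 9.23 CPM to 34.1 and 46.5 CPM (1.72 ± 0.22, adjusted p = 0.00991), and Klkb1, prekallikrein, from 2.73, 2.98 and 2.65 CPM to 13.2 and 23.1 CPM (2.71 ± 0.25, adjusted p = 0.00554).

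The falls were mostly genes that round spermatids hold at higher levels than spermatocytes. Of 1192 tested genes with a log2 ratio of at least 1 between sorted wild-type round spermatids and pachytene spermatocytes, 263 were lower (22.1%) and 4 higher. This share was 39.8% without wild type 3, 7.84% without wild type 1, and 0.252% and 0.336% without knockout 1 and knockout 2. Of 3235 genes higher in spermatocytes by the same measure, 0 were lower in edgeR (27 lower at an unadjusted p under 0.05, 5 lower in DESeq2 and 0 in limma voom). Between these classes 77 of 9563 genes were lower (0.805%). The median log2 ratio of spermatid to spermatocyte was 1.10 over the 342 falls, with quartiles of 1.01 and 1.18, and -0.20 over all genes tested. The spermatocyte labels carry a doubt, because Nkapl measured 132 and 131 CPM in the spermatocytes labelled Nkapl knockout and 101 and 96.6 CPM in those labelled wild type. With the knockout-labelled spermatocytes in their place, an alternative added after this was seen, 303 of 2556 spermatid-enriched genes were lower (11.9%) and 1 of 3901 spermatocyte-enriched genes was. Only 1 gene reached a log2 ratio of 2 with the wild-type labels. The falls summed to 23857 and 24388 CPM in the wild-type spermatocytes and 53573 and 52953 CPM in the round spermatids. Smcp and Hils1, for example, measured 352 and 246 CPM in the spermatocytes and 928 and 540 CPM in the spermatids. Whether the spermatocyte fraction held spermatid RNA was not tested, so these values may not be levels of spermatocytes alone. The cut of 1 lay close to the lower quartile of the falls. Cdh2, N-cadherin, ran the other way: it fell from 125, 133 and 127 CPM to 76.9 and 81 CPM (-0.70 ± 0.09, adjusted p = 0.00869), and measured 120 CPM in spermatocytes and 59.6 CPM in spermatids.

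Wild-type testes differed from each other in the same genes. The 342 falls summed to 3787, 6226 and 2432 CPM in wild type 1, 2 and 3, and to 466 and 520 CPM in knockout 1 and 2. Wild type 2 was highest and wild type 3 lowest of the wild types in 322 of the 342 falls. The median log2 difference from wild type 1 was 0.68 for wild type 2 and -0.68 for wild type 3 over the falls, against -0.007 and -0.001 over all genes tested. Wild-type testes of the series' other sets summed to 3581 and 2620 CPM (Nkapl set) and 2787 CPM (TGdel set), within the range of the Sox30 set's wild types. Wild type 3 thus lay nearest the knockouts and close to 2 of those other wild types.

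**Figure D4:**
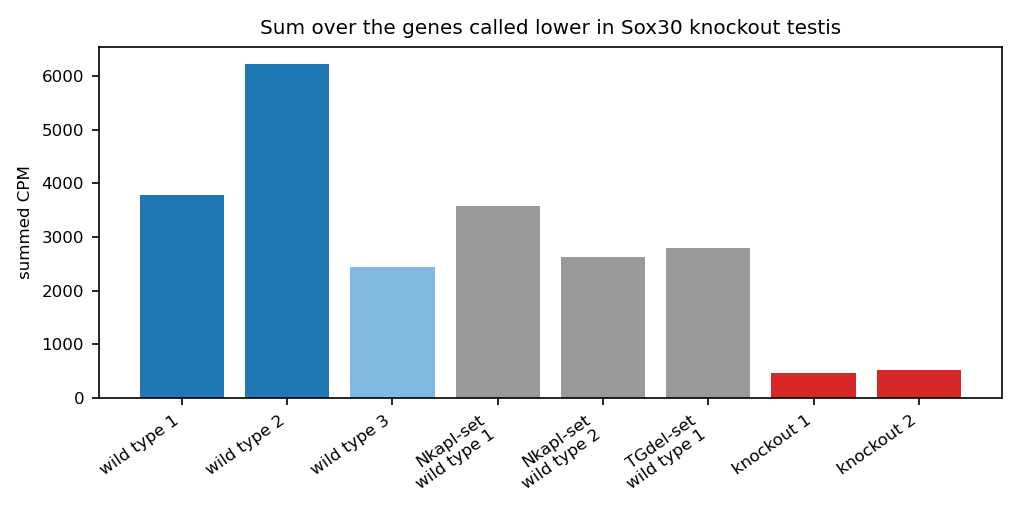
Summed level (CPM) of the 342 genes called lower, in the 5 libraries of the Sox30 set (blue wild type, light blue wild type 3, red knockout) and in 3 wild-type libraries of other sets (grey). Wild-type sums range from 2432 to 6226, the knockouts are at 466 and 520, and the genes were chosen with the coloured libraries.

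The place of wild type 3 was measured with genes chosen without it. In the 610 genes lower in the knockouts than in wild type 1 and 2, wild type 3 lay a median of 41.5% of the way from the wild-type mean to the knockout mean on the log2 scale (quartiles 28.7% and 59.0%). It was nearer the wild types in 392 of the 610 and above both knockouts in 598. These genes summed to 3652 CPM in wild type 3, to 5736 and 9313 CPM in wild type 1 and 2, and to 1117 and 1300 CPM in the knockouts. The same measure put wild type 1 at 0.967% of the way (101 genes) and wild type 2 at -38.1% (287 genes), beyond the other wild types.

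The falls were spread over the genome with a larger share on the X chromosome. There, 36 of 754 tested genes were lower (4.77%), against 1.93% over all genes with a position. Chromosome 16 (3.31%) and chromosome 4 (2.80%) followed, and chromosome 10 had the lowest share of the autosomes (0.733%). Among the X-linked falls Gm4907, Gm5935, Gm5169 and Gm1993 are neighbours of a family with near-identical copies, so their counts are uncertain. Runs of neighbouring tested genes called in the same direction held 64 of the falls. One is Iqcf3, Iqcf5 and Iqcf4 on chromosome 9 (106503225 to 106570996), a further one Tssk1 and Tssk2 on chromosome 16 (17894223 to 17900024), and another Spam1 and Hyal5 on chromosome 6 (24791188 to 24891958). Whether reads were counted by strand is not given in the sources used here, and overlapping or antisense neighbours cannot be separated.

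Protein-coding genes made up 263 of the 338 falls with an annotation (77.8%), against 90.9% of genes tested and 84 of 89 rises (94.4%). Provisional symbols were common among the falls, 110 of 342, against 1916 of 17816 genes tested. MicroRNA genes gave 0 calls of 201 tested in edgeR, DESeq2 and limma voom, with 5 at an unadjusted p under 0.05.

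The SOX core word was found in more promoters of the falls than of other genes. RefSeq promoters were matched for 259 of the 338 falls with a log2 size of at least 1 (313 promoters), for 68 of the 90 rises (85 promoters) and for 13550 of the genes tested (16910 promoters). ACAAT or ATTGT, on either strand, occurred in 50.2% of the promoters of the falls (also 50.2% of 568 without wild type 3), in 28.2% of those of the rises, in 23.0% of those of all genes tested and in 31.0% of all 32851 promoters in the table. Spermatid-enriched genes that were not called had it in 36.8% of 912 promoters. Uncalled here does not mean unchanged. The 1192 spermatid-enriched genes, called or not, had a median log2 fold change of -0.99, and 39.8% of the class was lower without wild type 3. The longer word ACAATG or CATTGT, which contains the shorter one, occurred in 27.2% of the promoters of the falls, 17.7% of those of uncalled spermatid-enriched genes and 8.85% of those of genes tested. Base composition moved with these shares: the median GC content was 50% in the falls, 52.7% in the uncalled spermatid-enriched genes and 59.0% in genes tested, and its part in the difference was not tested. GTTGCC or GGCAAC, part of the site of RFX factors, occurred in 18.5%, 18.2% and 13.2% of the same sets, and TGACG or CGTCA, part of the site of CREM, in 19.2%, 20.9% and 27.4%.

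**Figure D5:**
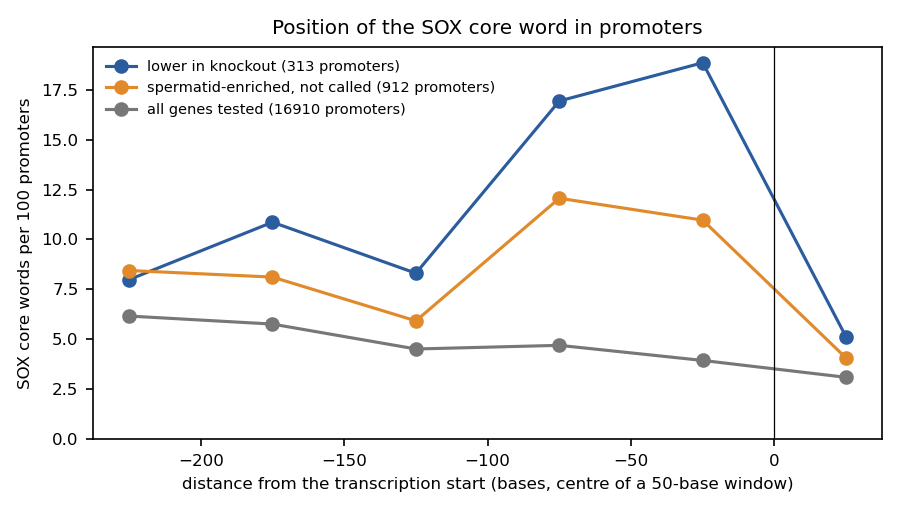
Occurrences of ACAAT or ATTGT per 100 promoters in windows of 50 bases from 250 bases before to 50 bases after the start of transcription, for the falls (blue), uncalled spermatid-enriched genes (orange) and all genes tested (grey). The blue line is highest in the last 100 bases before the start, at 16.9 and 18.8 words per 100 promoters, against 4.70 and 3.94 for all genes tested.

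The word lay close to the start, and it was more frequent where less RNA remained. From 100 to 50 bases before the start there were 16.9 words per 100 promoters of the falls, 12.1 in uncalled spermatid-enriched genes and 4.70 in genes tested. In the last 50 bases there were 18.8, 10.96 and 3.94. The windows were chosen after the data were seen. Among falls whose knockout mean was at most 2% of wild type, 59.2% of 142 promoters held the word, against 50.6% of 89 promoters of falls at 2% to 10% and 34.1% of 82 promoters of falls above 10%. A match of these letters is a description of the sequence and does not show that SOX30 binds there.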

How the data were processed

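Whole-testis RNA was sequenced and the authors deposited raw counts, whole numbers of reads per gene symbol. The submitters' processing notes name HISAT2 2.1.0, HTSeq, DESeq2 and the mm10 build, with no roles or order; which gene annotation and strand setting were used is not given in the sources at hand. Groups came from the heading inside each count file, read against the file's record, and identical columns were used once. From the deposited counts, genes passing edgeR's filterByExpr were scaled by TMM and tested with edgeR 4.0.16 (R 4.3.3, limma 3.58.1; glmQLFit, glmQLFTest, two-sided, Benjamini-Hochberg over all genes tested, threshold 0.05). Standard errors were obtained by dividing the size of the log2 fold change by the root of the F statistic. CPM values use TMM-adjusted library sizes in the Sox30 set and plain totals in other sets, so levels across sets were scaled separately.

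Sorted-cell libraries came from Nkapl wild-type mice. Lines of their files that name no gene held 18.8% to 20.0% of the wild-type totals and 23.2% to 23.5% of the totals labelled Nkapl knockout, and were left out. Their ratio is log2 of mean CPM plus 0.5 in spermatids over spermatocytes. Intervals (95%, Clopper-Pearson) and floors (3 counts over the group) cover counting error only, since PCR reads without molecular identifiers are not independent molecules. Gene positions are from GENCODE vM21 (GRCm38), matched by symbol for 17507 of 17816 genes tested, and promoters are from RefSeq (GRCm38.p6).

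The comparison and its 25 gene lists were chosen with earlier results of these data known. Genes were named by rule: Sox30 and Nkapl, the 8 largest falls and rises with a mean log2 CPM of at least 0, the 8 most abundant falls and 4 most abundant rises (provisional symbols such as Gm and Rik passed over in these), and in each list at most 5 called members, taken by smallest p, and the 2 most abundant uncalled ones; others are marked as named after their values were seen. Some genes the rule selects are given only in counts or are not reported here. Alternatives were DESeq2 1.42.0, limma voom, size factors, upper-quartile scaling, no filter, each library left out in turn (for the sorted-cell and promoter shares, added after they were seen), the file-record grouping, a replicate block, another sorted-cell ratio and a longer promoter word.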

Additional observations from a re-analysis of the deposited data

How the results depend on the processing

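With 2 knockout libraries and 1 wild type of doubtful record, the number of calls depended on the method. In all 342 falls and 90 rises the groups do not overlap, so an unchanged sign says nothing about stability. DESeq2 called 628 lower (578 with a log2 size of at least 1) and 137 higher, and limma voom called 32 lower (31) and 48 higher (47 of that size). Size factors gave 276 and 70, upper-quartile scaling 352 and 93, and no filter 412 and 99. Leaving out 1 library gave 7 to 610 lower (7 to 602 of that size) and 12 to 83 higher (12 to 80). Grouping by file record gave 0 lower and 0 higher at either size. The cause of these differences was not tested.

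A fit with the replicate number as a block called 1370 lower (887 of that size) and 358 higher (159). Only 2 numbers are shared by both groups. Wild type 3 is alone in its block, so this fit in effect compares wild type 1 and 2 with the knockouts. Deviations from the group mean correlated at 0.0548 for number 1 and 0.361 for number 2. Wild type 3, without a partner, correlated at 0.333 with knockout 1. With 2 knockouts the deviations of one mirror those of the other, so these values cannot show whether same-numbered samples are paired. The labels do not say what the number stands for. Of 66 named called genes, 66 were called by DESeq2, 10 by limma voom, 29 without wild type 1, 63 without wild type 2, 64 without wild type 3, 10 without knockout 1 and 7 without knockout 2. Those called in every alternative but the file-record grouping were Adam7, Adcy10, Crisp1, Satl1, Serpina16, Serpina1f and Wfdc16.

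The share of spermatid-enriched genes that were lower went from 22.1% to 11.9% with the spermatocytes labelled Nkapl knockout, an alternative chosen after seeing the data, to 0% (0 of 1 gene) at a log2 ratio of 2, and to 0.252% to 39.8% with 1 library left out. The longer SOX word was in 27.2% of promoters of the falls, against 50.2% for the shorter, which ranged from 33.3% (6 promoters) to 51.1% with 1 library left out. Low counts limit the sizes: 52 falls had 0 counts in both knockouts.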

Other observations

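Other cell types and pathways gave few calls, in lists too small to hold many at the shares over all genes tested (1.92% lower, 0.505% higher). Of 15 endothelial genes tested, 0 were called in edgeR, 1 reached an unadjusted p under 0.05 and DESeq2 called 1. The red blood cell list had 2 of its 10 genes tested and 0 called, with summed levels of 10.6, 12.5 and 9.20 CPM in wild type and 6.65 and 7.39 CPM in knockout. Among 30 p53 target and apoptosis genes 1 was higher, Trp63, and the list's median log2 fold change was 0.15. Genes of the Y chromosome had 0 calls among 18 tested in edgeR; 6 were lower at an unadjusted p under 0.05, and 5 were lower in DESeq2 and 1 in limma voom.

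The 90 rises summed to 1025, 1101 and 1011 CPM in wild type 1, 2 and 3 and to 1967 and 2433 CPM in the knockouts. These sums use the libraries that chose the genes. In the wild types of the other sets the same genes summed to 1096, 1063 and 1139 CPM. Abundant genes weigh most in these sums, such as Sptbn1, at 155 CPM in the TGdel set's wild type and a mean of 315 CPM in those of the Sox30 set. In that TGdel-set library 47 of the 55 rises under 1 CPM in sorted germ cells lay above all wild types of the Sox30 set. The same held for 14 of the other 35 rises and 36.3% of all genes tested.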
